A study of Mus musculus with 2 samples.

Results

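The genes described are 8 connexin genes of the mouse, *Gja1*, *Gja4*, *Gja5*, *Gjb1*, *Gjb2*, *Gjb5*, *Gjb6* and *Gjc1*, chosen by gene symbol from the 18498 rows of the deposited table, of which 18043 carry a symbol. Their levels were compared between 1 RNA-sequencing library of the circumvallate papillae (CvP), the taste papillae at the back of the tongue, and 1 library of tongue epithelium without papillae (Epi). Both libraries came from male C57BL/6J mice of 12 to 30 weeks on normal chow, for which the labels name no treatment and no altered allele, and RNA of at least 20 mice was pooled for each. The study's methods for RT-PCR say that its CvP sample took in epithelium around the taste buds, and no sort of cells is described for either library. With 1 library per tissue there was no replicate, so no p-value was calculated, and every ratio compares these 2 libraries. The libraries held about 28380058 (CvP) and 27912122 (Epi) mapped reads as estimated from the steps of the RPKM values, and the intervals given cover counting error only.

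Connexins are membrane proteins that assemble into hemichannels, and hemichannels of adjacent cells dock to form gap junctions, which pass ions and small metabolites between the cells. In stratified epithelia such as that of the tongue, keratinocytes are coupled through several connexins at the same time, and other connexins belong to vessels, myelin or muscle. The pannexins are related channel proteins of similar topology that usually do not form gap junctions and that release ATP, a transmitter of taste cells.

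Of the 8 genes, 4 were expressed at a level of 1 or more in at least 1 library, in RPKM, read counts scaled to the length of the exon model and to the mapped reads. They were *Gja1*, *Gjb2*, *Gjb6* and *Gjb5*. As deposited, all 4 were lower in the CvP than in the Epi, at CvP/Epi ratios from 0.528 for *Gja1* to 0.914 for *Gjb6*, and for *Gjb6* the direction turned to 1.10 when RPKM was rescaled to a common sum in each library. The other 4 genes, *Gjb1*, *Gja4*, *Gjc1* and *Gja5*, had an RPKM below 1 in both tissues. The gene of the connexin-like channel pannexin 1, *Panx1*, was 4.09-fold higher in the CvP.

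The 4 expressed genes lie at 3 places of the genome (NCBI37/mm9), and in each the whole coding sequence lies in 1 exon of the GENCODE M1 transcript. *Gja1* (gene ID 14609) is on the plus strand of chromosome 10 from 56097106 to 56110225. On the minus strand of chromosome 14, *Gjb2* (gene ID 14619) lies from 57717439 to 57723539 beside *Gjb6* (gene ID 14623) from 57742140 to 57752414. *Gjb5* (gene ID 14622) occupies 127032053 to 127035408 of chromosome 4, minus strand.

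The sequences before the starts of these genes are shown because the genes share a direction in the deposited values. They are the 250 bases upstream of the start in RefSeq (GRCm38.p6), read along each gene, chr10:56377050-56377299 for *Gja1*, chr14:57104703-57104952 for *Gjb2*, chr14:57133612-57133861 for *Gjb6* and chr4:127358165-127358414 for *Gjb5*. Capitals mark matches on either strand to 4 motifs, and no marked matches overlap. The TATA box was searched as TATAAA. For the GC box the letters were GGGCGG. The third motif was the CCAAT box by these letters. The AP-1 site was written TGANTCA, with N for any base.
Gja1: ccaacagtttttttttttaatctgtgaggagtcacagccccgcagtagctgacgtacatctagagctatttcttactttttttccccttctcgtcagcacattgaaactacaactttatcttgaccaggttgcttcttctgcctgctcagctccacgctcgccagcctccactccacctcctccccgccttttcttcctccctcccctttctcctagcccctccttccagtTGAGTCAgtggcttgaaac
Gjb2: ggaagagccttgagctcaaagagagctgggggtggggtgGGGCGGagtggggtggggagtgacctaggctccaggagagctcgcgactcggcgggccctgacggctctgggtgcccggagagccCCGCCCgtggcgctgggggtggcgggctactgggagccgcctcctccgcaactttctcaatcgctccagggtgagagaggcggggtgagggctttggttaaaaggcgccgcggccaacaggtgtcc
Gjb6: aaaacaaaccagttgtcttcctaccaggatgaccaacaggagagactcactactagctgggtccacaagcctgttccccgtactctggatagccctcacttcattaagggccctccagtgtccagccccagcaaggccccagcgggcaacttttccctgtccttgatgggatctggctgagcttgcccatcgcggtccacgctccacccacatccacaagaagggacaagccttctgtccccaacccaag
Gjb5: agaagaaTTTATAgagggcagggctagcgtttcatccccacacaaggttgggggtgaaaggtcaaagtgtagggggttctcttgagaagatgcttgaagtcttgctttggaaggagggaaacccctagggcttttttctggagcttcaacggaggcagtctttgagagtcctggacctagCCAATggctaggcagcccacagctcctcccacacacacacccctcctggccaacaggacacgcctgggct

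The 4 sequences held different matches. *Gja1* had an AP-1 match that began 19 bases before the start, which 6.75% of the 32851 sequences of the same length in the RefSeq table hold. *Gjb2*, with 69.2% G and C against a median of 52.4% over all these sequences, had GC boxes at 211 and 126 bases, a motif found in 32.7% of them. *Gjb5* had a TATA box match at 243 bases and a CCAAT box at 70 bases, held by 12.4% and 33.8%. In *Gjb6* none of the 4 letter strings was found in this window. These matches are descriptions of letters and say nothing of binding.

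*Gjb2* and *Gjb6* are the most alike of the 8 genes, with 76.8% identity over 680 aligned coding bases, and they are shown because they are neighbours on the chromosome whose ratios differ. Their most alike stretch of 75 bases, the read length of the study, spans coding bases 214 to 288 of both genes, where the A of the start codon is base 1. It lies on the minus strand at chr14:57719299-57719373 for *Gjb2* and at chr14:57743352-57743426 for *Gjb6* (NCBIM37). Capitals mark the 10 bases at which they differ.
Gjb2: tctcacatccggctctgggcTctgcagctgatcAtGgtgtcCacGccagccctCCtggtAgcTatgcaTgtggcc
Gjb6: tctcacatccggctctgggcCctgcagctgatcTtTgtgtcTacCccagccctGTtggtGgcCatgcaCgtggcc

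No 75-base window of any of the 8 transcripts came within 2 mismatches of another of the 13 connexin transcripts searched, on either strand. The closest window of *Gja1* had 7 mismatches, to *Gja6*. Transcripts beyond these 13 were not searched, so reads shared with other genes are not covered, and the mismatch setting of the mapping is not given in the sources used here.

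*Gja1*, the most widely expressed connexin of the body, was read at 178 RPKM in CvP against 337 in Epi, from about 15692 and 29248 reads. Its ratio of 0.528 (95% exact interval 0.518 to 0.538) was the lowest of the 4 expressed genes. Only 3.48% of the 10363 rows with an RPKM of at least 1 in both libraries had a lower ratio. *Gja1* stood at number 141 of all rows by RPKM in the Epi and at number 214 in the CvP.

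*Gjb2*, a beta connexin of the cochlea and of epidermis whose mutations cause deafness, was at 175 RPKM in CvP against 283 in Epi. The ratio was 0.619 (interval 0.610 to 0.628), and 5.51% of the rows had a lower one. The levels of *Gja1* and *Gjb2* in the CvP differed by a ratio of 1.02, and no spread between samples exists by which to order them.

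*Gjb6*, the neighbour of *Gjb2* and a connexin of the same tissues, was at 68.3 in CvP against 74.7 in Epi. Its ratio of 0.914 (interval 0.888 to 0.940) was the nearest to 1 of the 4, and it became 0.696 when divided by the median ratio of the table and 1.10 when rescaled to a common sum.

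*Gjb5*, a connexin of stratified epithelium and placenta, was the lowest of the expressed members, at 9.17 in CvP against 15.4 in Epi. With about 443 and 732 reads the ratio was 0.596, and its wider interval of 0.528 to 0.671 overlaps the interval of *Gjb2* but lies wholly below that of *Gjb6*. Per listed length, *Gja1* and *Gjb2* stood above *Gjb6*, and *Gjb6* above *Gjb5*, in both libraries.

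**Figure D1:**
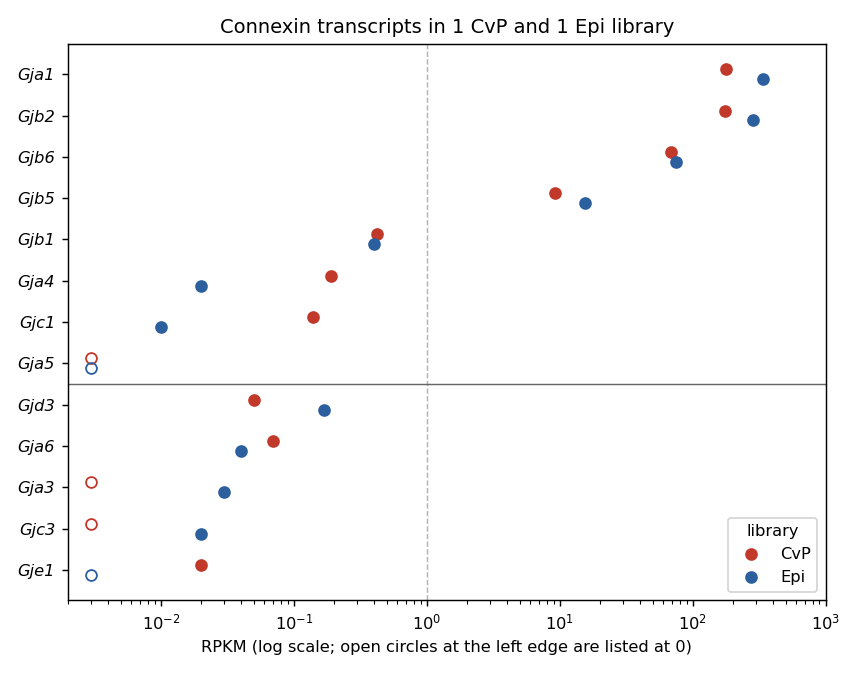
RPKM (log axis) of the 8 connexins described (above the line) and of 5 other connexins (below it), with 1 point for the CvP library and 1 for the Epi library. *Gja1*, *Gjb2*, *Gjb6* and *Gjb5* lie right of the dashed line at an RPKM of 1 in both libraries with the CvP point to the left of the Epi point, as deposited, and *Gja5* is listed at 0 in both.

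No member reached a ratio of 0.5 or lower, a limit met by 3.76% of the 12549 rows that reach 1 RPKM in at least 1 library. A ratio of 2 or higher was met by 28.3% of these rows and again by none of the 4 members past that minimum. A ratio below 1 of any size was found for 4 of these 4 members and for 21.8% of the rows. A CvP RPKM above 10 together with a ratio above 3 was met by 0 of the 8 members and by 2.35% of all rows.

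The scale of the table bears on these counts. Over rows with an RPKM of at least 1 in both libraries the median ratio was 1.31 (log2 0.39), so most genes were above 1 as deposited. Relative to this median, the ratio was 0.402 for *Gja1*, 0.454 for *Gjb5* and 0.471 for *Gjb2*, and these 3 members were then past 2-fold lower, as were 6.94% of rows. After rescaling to a common sum they were at 0.636, 0.719 and 0.746, and no member was past 2-fold. The split of all rows past 2-fold was 3557 higher and 472 lower as deposited, 2370 and 871 after division by the median, and 4878 and 341 after rescaling. The median log2 ratio, with a pseudocount of 0.1, was -0.72 over the 4 members and 0.50 over the 12549 rows.

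The table also shifted with the level of expression. Rows with a geometric mean RPKM of at least 100, where *Gja1* and *Gjb2* lie, had a median ratio of 0.778. From 30 to 100, where *Gjb6* lies, it was 1.00, and from 10 to 30, where *Gjb5* lies, it was 1.2. Each of the 4 genes was below the median of its own range, *Gjb6* by the least.

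**Figure D2:**
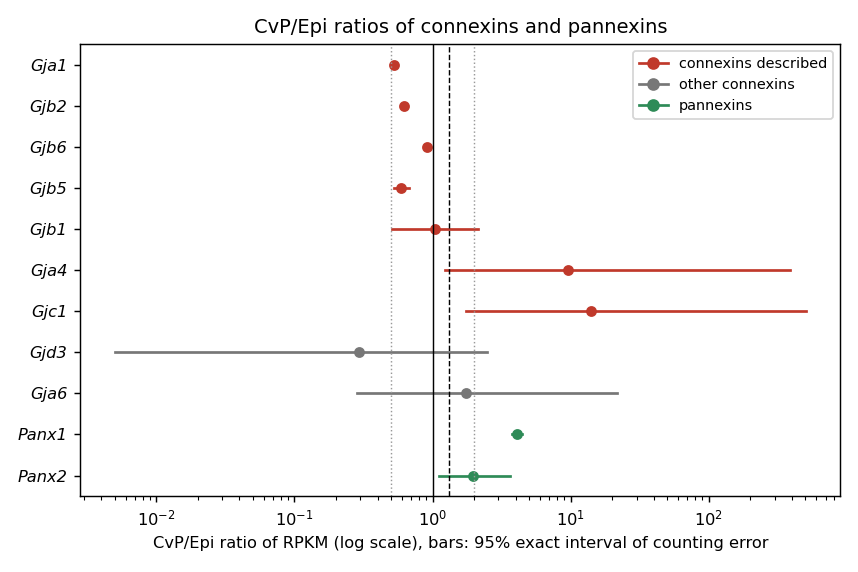
CvP/Epi ratios of RPKM (log axis) as points with 95% exact intervals of counting error, for the connexins described, other connexins and pannexins whose reads allow a ratio, with the solid line at 1, the dashed line at the median ratio of 1.31 and dotted lines at 0.5 and 2. *Gja1*, *Gjb2* and *Gjb5* lie between 0.5 and 1, *Gjb6* is at 0.914 as deposited and 1.10 on the common sum, *Panx1* is at 4.09, and the bars of *Gja4* and *Gjc1* are long because the Epi held about 1 read of each.

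A ratio between 2 connexins within a library does not depend on a single factor by which that library is scaled. The *Gjb2*/*Gjb6* ratio of RPKM was 2.56 in CvP against 3.79 in Epi, and the first divided by the second was 0.677 (exact interval 0.656 to 0.699). The *Gja1*/*Gjb6* ratio differed more, at 2.61 in CvP against 4.52 in Epi, a quotient of 0.578 (0.558 to 0.598). For *Gjb5*/*Gjb6* the quotient was 0.652 (0.577 to 0.736). *Gjb6* thus stood higher relative to *Gja1*, *Gjb2* and *Gjb5* in the CvP than in the Epi, whatever single factor scales each library. The shift of the table with level does not cancel in these quotients, and they were not corrected for it. Between *Gjb2* and *Gjb5* the quotient was 1.04 with an interval from 0.923 to 1.17, so that a difference was not detectable at this depth. Of 6 such pairs among the 4 expressed members, 5 had an interval that leaves out 1, and none was adjusted for the number of pairs. For *Gja1*/*Gjb5* the interval only just left out 1, at a quotient of 0.886 (0.787 to 0.999). The 6 pairs share 4 genes, and the intervals hold counting error only. The share of other gene pairs that leave out 1 was not calculated, so the count is not particular to connexins.

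The summed RPKM of the 8 members was 431 in CvP against 711 in Epi, a ratio of 0.607 that became 0.462 relative to the median of the table and 0.732 on the common sum. *Gja1* held 41.3% of the CvP sum and 47.5% of the Epi sum. The share of *Gjb2* was 40.6% and 39.8%, that of *Gjb6* 15.8% and 10.5%, and that of *Gjb5* 2.13% and 2.16%. The remaining 4 members held under 0.1% each in both libraries.

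The order between genes depends on the length by which reads are divided. The table lists 6150 bases for *Gjb2*, 2.56 times the 2406 bases of its GENCODE M1 transcript, and 4686 bases for *Gjb6*, 2.23 times its 2105 bases. The 6150 bases listed for *Gjb2* also exceed the 6101 bases between the start and end of its row. They are thus not the length of annotated exons alone. For *Gja1* the listed 3105 bases equal the transcript, and for *Gjb5* the listed 1704 are 0.990 times it. If reads are instead divided by the transcript, *Gjb2* would be at 447 in CvP against 723 in Epi and would exceed *Gja1* in both, with 56.8% and 58.2% of the summed level of the 8 members. How many reads fell outside the annotated exons is not shown by the table. The length cancels in each CvP/Epi ratio.

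**Figure D3:**
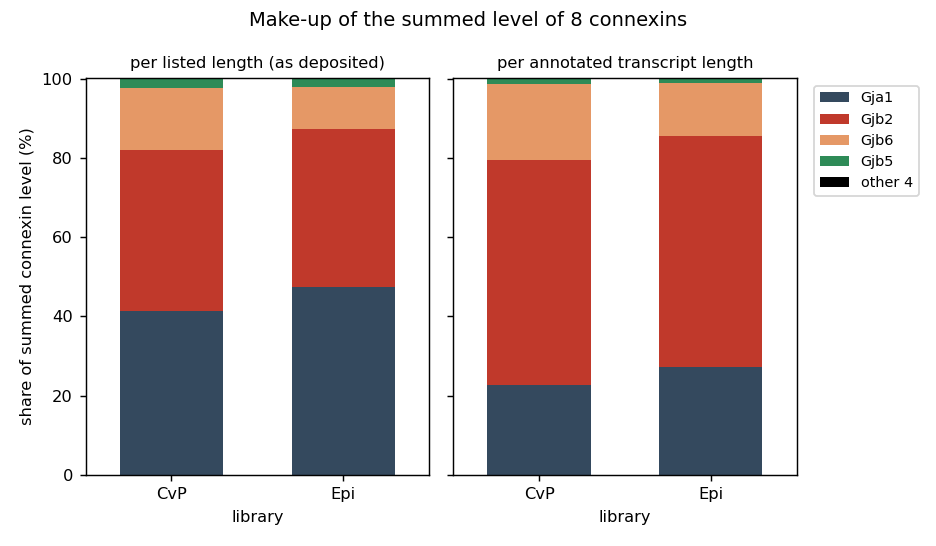
Share (%) of each connexin in the summed level of the 8 connexins described, as stacked bars from 0 for the CvP and the Epi library, per length listed in the table (left) and per annotated transcript length (right). *Gjb6* takes a larger share of the CvP bar than of the Epi bar in both panels, at 15.8% and 10.5% per listed length, while the share of *Gjb2* is larger per transcript length.

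The other 4 members were rare in both tissues. *Gjb1*, the connexin of hepatocytes and of Schwann cell myelin (X chromosome, 98572676 to 98580963), was at 0.42 RPKM in CvP against 0.40 in Epi. These values rest on about 18 and 17 reads, and the ratio of 1.05 (0.506 to 2.15), which was 0.8 relative to the median of the table, shows no detectable difference at this depth. *Gja4*, a connexin of arterial endothelium and of ovarian follicles (chromosome 4, 126988665 to 126991222), had 0.19 in CvP against 0.02 in Epi, about 9 reads and 1 read. The ratio was 9.50 (1.23 to 388). *Gjc1*, a connexin of smooth muscle and of the early heart (chromosome 11, 102660792 to 102681000), had 0.14 in CvP against 0.01 in Epi, about 12 reads and 1 read, which gives 14 (1.75 to 504). These 2 ratios rest on 1 read in the Epi and would change by a large factor with a single read more. *Gja5*, the connexin of arterial endothelium and of the cardiac conduction system (chromosome 3, 96836339 to 96857557), was listed at 0 in both libraries. For this gene 3 reads would equal 0.0340 RPKM in CvP and 0.0346 in Epi.

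Most markers of endothelium, of vascular smooth muscle and pericytes, and of Schwann cells and glia had an RPKM below 1 in each library. *Gja4*, *Gja5*, *Gjc1* and *Gjb1* are known from such cells among others, and hepatocyte markers were not listed. Of 8 endothelial markers with a row, 6 in the CvP library and 8 in the Epi library had an RPKM below 1, with sums of 7.82 and 1.01. *Cdh5* was at 0.02 and 0.06, while *Vwf* (4.45 and 0.09) and *Tek* (2.49 and 0.07) were higher in the CvP and made up most of its sum. The 9 markers of vascular smooth muscle and pericytes summed to 4.25 in CvP against 6.43 in Epi, with *Cnn1* and *Rgs5* at 0 in the CvP. The lower sum came mostly from *Des* (0.12 and 2.25) and *Cspg4* (1.05 and 1.74). *Tagln* (1.75 and 1.22) and *Mylk* (0.91 and 0.32) went the other way, higher in the CvP. For Schwann cells and glia the 8 markers summed to 16.0 and 10.5, mostly from *Mbp* (10.3 and 8.94), and *Mag* was listed at 0 in the Epi. The part of these cells in the values of the 4 rare connexins was not tested.

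Keratinocyte markers were lower in sum in the CvP as deposited, although single markers of both lists had a ratio above 1. The 9 markers of suprabasal and cornified keratinocytes summed to 40985 in CvP against 96160 in Epi, a ratio of 0.426, with 7 of 9 below 1 and *Krt17* and *Ivl* above it. The 7 basal keratinocyte markers summed to 2615 and 3371, a ratio of 0.776, with 5 of the 7 above 1. The lower basal sum came from *Krt14* (295 in CvP against 1140 in Epi) and *Krt15* (497 and 784). Taste genes were higher in sum in the CvP. The 4 markers of general taste tissue summed to 486 and 1.89, the 5 of type II taste cells to 290 and 22.8, and the 5 of type III cells to 43.1 and 0.03, and *Kcnq1*, *Pkd2l1*, *Snap25*, *Ddc* and *Ncam1* were at 0 in the Epi. The 3 type I markers summed to 69.4 and 8.35, with *Entpd2* and *Kcnj1* (listed at 0 in the Epi) higher and *Slc1a3* lower. Immune markers were also higher in the CvP (224 and 28.6, *Cd3e* at 0 in the Epi), and those of skeletal muscle (7.85 and 73.2), fibroblasts (27.5 and 129, of which *Dcn* alone gave 26.1 and 128 while *Dpt* and *Lum* were at 0 in the CvP) and salivary gland (24.1 and 404) were lower in sum. The single markers of the fibroblast and salivary gland lists did not share a direction. The fibroblast marker *Pdgfra* was at 1.30 in CvP against 0.07 in Epi, and of 6 salivary markers that passed the minimum of 1, 3 were below 1 in ratio and 3 above. The Epi sum of that list came mostly from *Lipf* (313) and *Amy1* (80.5), while *Pigr* (12.0 and 0.54) and *Aqp5* (6.09 and 0.69) were higher in the CvP. In RNA of whole tissue, fewer cells of a type and less RNA per cell cannot be told apart, and the part of the cell make-up in the connexin ratios was not tested.

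Neighbouring connexins differed widely in level. On chromosome 14 the table has 3 rows within 97.9 kb, from 57654497 to 57752414, *Gja3*, *Gjb2* and *Gjb6*. *Gja3*, a connexin of the lens, had 0 reads in CvP against about 1 in Epi, next to *Gjb6* with about 9080 and 9774 reads.

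Beside the 8 members, 5 other connexins were compared, and *Gja10*, *Gjd2* and *Gjd4* were not analysed here. None of the 5 reached an RPKM of 1, and the highest value among them was 0.17, for *Gjd3* in the Epi. *Gja6* (4 reads and 2) and *Gjd3* (1 read and 4) had intervals that hold 1. *Gja3*, *Gjc3* and *Gje1* had at most 2 reads in either library, too few for a ratio.

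Among the pannexins, 1 gene was well expressed. *Panx1* (chromosome 9, 14810229 to 14849922) was at 17.3 RPKM in CvP against 4.24 in Epi, a ratio of 4.09 (3.76 to 4.45), 3.11 relative to the median of the table. It was above an RPKM of 10 in the CvP and above 3 in ratio, and 97.1% of rows at an RPKM of at least 1 in both libraries had a lower ratio. *Panx2* was at 0.39 and 0.20, a ratio of 1.95 (1.11 to 3.61), and *Panx3* had about 1 read in CvP against 0 in Epi.

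**Figure D4:**
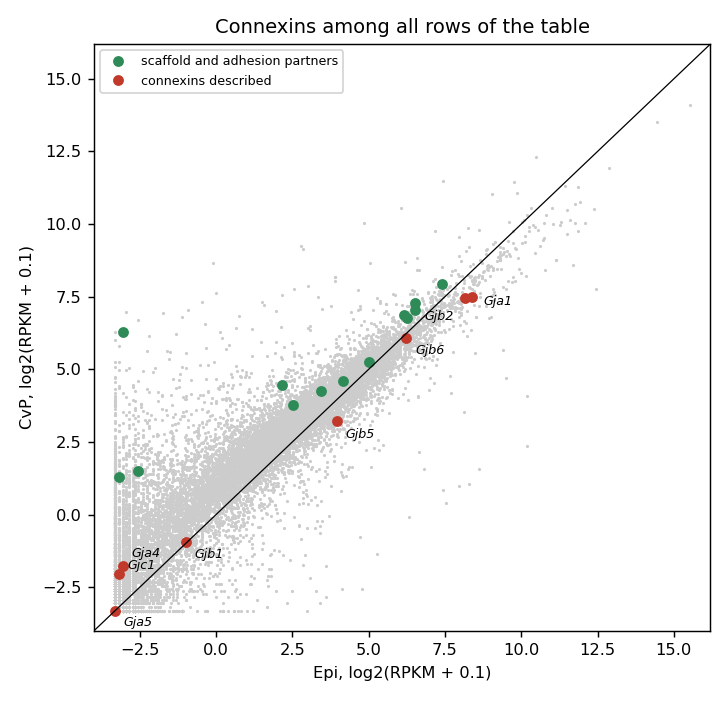
Each grey point is a row of the table, with log2(RPKM + 0.1) in the Epi on the x axis and in the CvP on the y axis, and the line marks equal values. The 4 expressed connexins described lie below the line as deposited, with *Gjb6* nearest to it (above 1 on the common sum), whereas the 13 scaffold and adhesion partners in green lie above it as deposited (*Tjp1* is below 1 relative to the median).

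The partner list holds genes of junction scaffolds, cadherins, catenins and other proteins known to bind connexins. All 13 listed scaffold and adhesion partners passed the minimum of 1 and had a ratio above 1 as deposited, where 21.8% of all rows were below 1. Their median log2 ratio was 0.74 against 0.50 over all rows. Past 2-fold higher were 5 of the 13 as deposited, beside 28.3% of all rows, 4 relative to the median (without *Cav1*), beside 18.9%, and 7 on the common sum (with *Cdh1* and *Tjp3*), beside 38.9%. *Tjp1*, the scaffold that binds the tail of the *Gja1* protein, was at 37.8 and 31.8, a ratio of 1.19. The E-cadherin gene *Cdh1* was at 154 in CvP against 92.0 in Epi (ratio 1.68), and *Ctnnb1*, the beta-catenin gene, was at 247 and 169 (1.46). Those past 2-fold as deposited were the caveolin genes *Cav1* (2.40) and *Cav2* (5.01), the N-cadherin gene *Cdh2*, the drebrin gene *Dbn1* (38.6) and *Nov*, whose protein binds that of *Gja1*. *Cdh2* rests on about 1 read in the Epi and *Nov* on 3, with intervals from 54.1 to 12042 and from 1325 to 18785. *Dbn1* rests on about 6 reads in the Epi, with an interval from 17.3 to 105. Relative to the median of the table *Tjp1* was at 0.906 and the other 12 were still above 1. By definition that median has as many rows above it as below, among rows with an RPKM of at least 1 in both libraries.

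The 18 listed kinase, turnover and trafficking genes, which act on connexin phosphorylation, degradation or transport, all passed the minimum of 1 and had a median log2 ratio of 0.36. As deposited, 3 kinases were past 2-fold higher, *Src* (14.8 in CvP against 5.71 in Epi, ratio 2.59), *Prkca* (3.39 and 1.39, ratio 2.44) and *Prkce* (1.46 and 0.60, ratio 2.43), beside 28.3% of all rows. Past 2-fold lower were 0, beside 3.76% of all rows. The count of 3 past 2-fold higher became 0 relative to the median of the table, beside 18.9% of all rows. On the common sum it became 5, with *Nedd4* and *Trim21* added, beside 38.9%. As deposited a ratio below 1 was found for 5 of the 18, beside 21.8% of all rows. Of these 5, 1 stayed below it on the common sum (0.960), *Cnst*, the gene of the connexin sorting protein consortin, at 13.1 and 16.5 (0.795, interval 0.755 to 0.838).

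**Figure D5:**
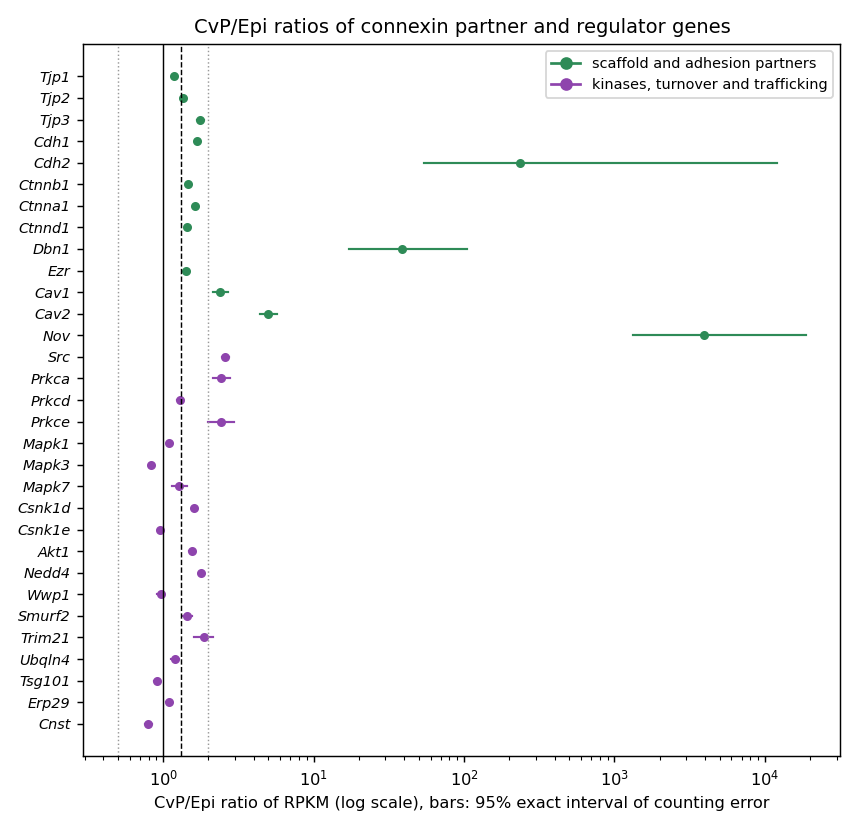
CvP/Epi ratios of RPKM (log axis) with 95% exact intervals of counting error for 13 scaffold and adhesion partners and 18 kinase, turnover and trafficking genes, with the solid line at 1, the dashed line at the median ratio of 1.31 and dotted lines at 0.5 and 2. The 13 partners all lie right of 1 as deposited (*Tjp1* left of the dashed line), *Cdh2*, *Dbn1* and *Nov* farthest, while the second group gathers around the dashed line.

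Rows most like a connexin over the 2 libraries were found by Euclidean distance of log2(RPKM + 0.1). For *Gja1* the nearest were *Blmh* (170 in CvP against 356 in Epi, distance 0.099), *Prdx5* (distance 0.18) and *Alox12b* (distance 0.22). For *Gjb6* they were *Atp5f1* (70.1 and 74.3, distance 0.040), *Cope* (distance 0.040) and *2900010J23Rik* (distance 0.053). With 2 libraries this likeness states only a shared level and ratio.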

How the data were processed

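Poly(A) RNA of each tissue was made into a library with a TruSeq kit and sequenced as single-end reads of 75 bases. The authors mapped the reads to NCBI37/mm9 with Bowtie 0.12.7 (submitters' processing notes) and deposited RPKM values from ERANGE. Strand use and ERANGE options are not given in the sources used here. The authors' column of CvP/Epi ratios was not used.

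Depth was read from the 163 rows of 0.1 kb, in which 1 read is worth an RPKM of 0.352 (CvP) or 0.358 (Epi), giving about 28380058 and 27912122 mapped reads. Among values under 20 reads in rows no longer than 0.5 kb, 98.2% and 98.4% were whole reads within 0.15. In 35 values of rows up to 1 kb whose listed length was at least 1.2 times the transcript, 94.3% were whole with the listed length, and 41.0% of 39 with the transcript length, so reads per gene were estimated as RPKM times listed length times depth. Ratios carry 95% exact (Clopper-Pearson) binomial intervals and quotients of ratios conditional exact intervals. No ratio was given where both libraries had 3 reads or fewer. In a simulated CvP and Epi table of 18498 rows with counting error only, 94.5% of the intervals of 200 changed genes held the true ratio. The changed genes were drawn from rows with many reads. The simulation therefore checks the calculation, and does not cover the rare connexins or any spread between libraries.

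Named genes are the members, 5 other connexins, pannexins, listed partners and regulators past 2-fold, and the 3 nearest rows to the members of highest and lowest ratio among those with an RPKM of at least 1 in both libraries (*Gjb6* and *Gja1*). *Tjp1*, *Tjp3*, *Cdh1*, *Ctnnb1*, *Nedd4*, *Trim21*, *Cnst* and the single markers were named after their values were seen. Members and lists were chosen with earlier results of these data known. Promoter sequences (7 of 8 members had an entry) came from RefSeq. Some genes are not reported here and entered no connexin count, sum or sequence search. Python 3.11.15, numpy 2.4.6, pandas 2.3.3, scipy 1.17.1, biopython 1.88 and matplotlib 3.10.9 were used. Alternatives were other scalings, pseudocounts of 0.1 and 1, fold limits of 1.5 and 3, no filter, an RPKM above 10, and other sums and lengths for the shares.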

Additional observations from a re-analysis of the deposited data

How the results depend on the processing

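No paired analysis was possible because CvP and Epi are single pools whose labels give no replicate number, and no test was run. Without replicates, the spread between mice and between dissections is unknown, and the low members are limited by depth.

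The number of members past 2-fold lower was 0 as deposited, beside 3.76% of rows, and 3 after division by the median ratio, beside 6.94%. With the limit set to 1.5-fold in place of 2-fold, 3 members were past it, and the number was 0 under the other alternatives run. The number past 2-fold higher was 0, beside 28.3% of rows as deposited, and 2 with no filter on RPKM, which lets in *Gja4* and *Gjc1* with about 1 read each in the Epi. The share of all rows at the 1.5-fold limit or with no filter is not given here, so these counts are not particular to connexins. The median log2 ratio of the members, -0.72, was -1.11 after division by the median ratio, -0.45 on the common sum and -0.065 with no filter, which adds the 4 rare genes. *Gjb6* reversed, from 0.914 to 1.10, on the common sum. The ratio of *Gja4* was 1.17 with a pseudocount of 1, and that of *Gjc1* was 1.13.

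Summing over the 13 connexins analysed in place of the 8 members left the shares of *Gja1*, *Gjb2*, *Gjb5* and *Gjb6* within 1 percentage point. Per annotated transcript length, an alternative chosen after seeing the data, they were 22.6% and 27.2% for *Gja1*, 56.8% and 58.2% for *Gjb2*, and 19.3% and 13.4% for *Gjb6*. The share of *Gjb5* fell there from 2.13% to 1.15% in the CvP and from 2.16% to 1.23% in the Epi. Intervals from transcript lengths put none of the 4 expressed members on the other side of 1.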
